A study of Mus musculus with 12 samples.

Results

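The genes described here are 3 genes of sodium channel beta subunits (Scn2b, Scn3b and Scn4b) and the 4 genes of the FGF-homologous factors (Fgf11, Fgf12, Fgf13 and Fgf14). They are listed by name for what their proteins do, and the rule that lists them uses no measured value. They are 7 of the 38594 Ensembl genes in the deposited table, and all 7 were among the 25809 genes that passed the low-count filter. The material was polyadenylated RNA of whole lumbar dorsal root ganglia (DRG, levels L1 to L6), which hold the cell bodies of sensory neurons together with their glia. The donors were untreated (labelled naive) male mice of the strain C57BL6J, 6 to 12 weeks old, with no transgene or agent in any group. Ganglia were taken at zeitgeber time (ZT, hours counted from lights on) 2, 8, 14 or 20, and 3 libraries were made per time, 12 in all. The labels do not say whether each library came from its own animal, so p-values speak only to the variation among these libraries, part of which may be technical. The labels number the libraries in the same sequence as the times, so a preparation batch and the time of day cannot be told apart.

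Voltage-gated sodium channels consist of a large pore-forming alpha subunit with smaller proteins attached. Beta subunits cross the membrane once, carry an immunoglobulin-like domain outside the cell and change the channel's gating, surface level and adhesion; the products of Scn2b and Scn4b are linked to alpha by a disulfide bond, and that of Scn3b is held without one. The FGF-homologous factors look like fibroblast growth factors but are not secreted: they bind the cytoplasmic tail of the alpha subunit and shift its inactivation. In sensory neurons these partners help to set how readily and how long a cell fires.

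Scn2b and Scn4b are neighbours on chromosome 9 of GRCm38, on the same strand, with 8324 bases between them (Scn2b at chr9:45117782-45130070, Scn4b at chr9:45138395-45154152, both plus strand). Scn3b lies on the same chromosome at chr9:40269217-40291618, plus strand. The factors are scattered, all on the minus strand: Fgf11 at chr11:69796068-69801857, Fgf12 at chr16:28160098-28753068, Fgf13 at chrX:59062145-59568071 and Fgf14 at chr14:123977907-124677127. The RefSeq table of promoter windows (GRCm38.p6, 250 bases before to 50 after a start) held 12 windows for 6 of the genes: 4 each for Fgf12 and Fgf13 and 1 each for Scn2b, Scn4b, Fgf11 and Fgf14. The 4 windows below are shown because they contrast the neighbouring beta subunit genes and the 2 most abundant factors; each factor window is 1 of 4, and capitals mark CG dinucleotides.
Scn2b, chr9:45117626-45117925, plus strand: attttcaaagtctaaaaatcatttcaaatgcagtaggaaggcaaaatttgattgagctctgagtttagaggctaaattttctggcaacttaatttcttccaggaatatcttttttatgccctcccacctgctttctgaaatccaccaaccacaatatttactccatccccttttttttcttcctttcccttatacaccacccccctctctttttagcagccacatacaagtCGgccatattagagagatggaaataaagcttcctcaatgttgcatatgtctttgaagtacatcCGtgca
Scn4b, chr9:45138374-45138673, plus strand: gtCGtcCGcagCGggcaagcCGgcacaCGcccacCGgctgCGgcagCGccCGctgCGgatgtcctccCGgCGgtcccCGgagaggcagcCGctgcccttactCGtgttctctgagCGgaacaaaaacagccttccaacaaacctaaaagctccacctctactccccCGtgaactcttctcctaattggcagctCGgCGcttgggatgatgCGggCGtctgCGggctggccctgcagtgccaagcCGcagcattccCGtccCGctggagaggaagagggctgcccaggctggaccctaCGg
Fgf12, chr16:28564902-28565201, minus strand: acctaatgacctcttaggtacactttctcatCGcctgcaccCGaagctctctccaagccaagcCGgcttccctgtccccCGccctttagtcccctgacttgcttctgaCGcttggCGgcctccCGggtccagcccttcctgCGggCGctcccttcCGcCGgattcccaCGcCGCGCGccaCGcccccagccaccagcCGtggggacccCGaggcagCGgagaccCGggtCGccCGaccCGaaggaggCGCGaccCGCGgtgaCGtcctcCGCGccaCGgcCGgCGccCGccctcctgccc
Fgf13, chrX:59134387-59134686, minus strand: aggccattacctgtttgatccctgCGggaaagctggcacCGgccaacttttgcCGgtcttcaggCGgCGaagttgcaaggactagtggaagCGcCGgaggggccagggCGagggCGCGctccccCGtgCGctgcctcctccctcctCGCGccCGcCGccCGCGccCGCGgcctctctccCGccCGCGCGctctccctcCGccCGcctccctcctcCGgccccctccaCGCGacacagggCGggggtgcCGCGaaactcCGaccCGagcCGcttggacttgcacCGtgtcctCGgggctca

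The Scn2b window is 38.3% G or C with 2 CG dinucleotides, and 7.45% of the 32851 windows in the RefSeq table had a lower share. The Scn4b window next to it is 66.3% G or C with 26 CG dinucleotides, at the 84.4th percentile. The Fgf12 window shown has 34 CG dinucleotides and the Fgf13 window 37, against a median of 7 over all windows. The windows of these genes that are not shown have 18, 29 and 22 for Fgf12 and 3, 40 and 6 for Fgf13. Which start is used in the ganglia was not measured. Both strands of the windows were searched for fixed letters. The E-box of the clock's activators (CACGTG) is in 0 of the 12 windows and in 7.15% of all windows. The related CACGTT is also in 0 of 12, against 4.69% of all. The D-box (TTATGNAA, 3.39% of all), the RORE core (0.219%) and the full cAMP response element (TGACGTCA, 1.79%) are likewise in 0 of 12. The shorter form of that element (TGACG, whose letters the full element contains) is in 1 of 12, the Fgf12 window shown, where it starts at -145 and again at +10 counted from the RefSeq start; 20.8% of all windows hold it. The general promoter letters GGGCGG are in 6 of 12 (35.7% of all) and CCAAT in 4 of 12 (37.4%), one of them the Scn4b window at -67. These matches are descriptions of the letters in these windows and say nothing of binding.

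The values of the deposited table behave as coverage per base, so levels are given as CPM (counts scaled to a library size of 1000000) of a quantity that is already per length and can be compared between genes. On this scale Fgf13 was the most abundant of the 7, with a median of 642 CPM over the 12 libraries. Scn4b followed at 179 CPM and Fgf12 at 146 CPM. Scn3b had a median of 41.5 CPM, Scn2b of 21.6 CPM and Fgf11 of 19.1 CPM. Fgf14 was barely detected, at 0.857 CPM, which corresponds to only 77.1 to 171 approximate reads per library. In the ordered list, 4 of the 6 neighbouring pairs had ranges that did not overlap. Scn4b and Fgf12 overlapped in range (153 to 189 and 129 to 158 CPM), although Scn4b was the higher of the pair in 12 of 12 libraries. Scn2b and Fgf11 overlapped as well (19.2 to 27.1 and 15.6 to 21.4 CPM), with Scn2b higher in 10 of 12. This order is a description over libraries and was not tested. The position of neighbours close in level depends on how length is handled: with the values divided by annotated lengths as if they were counts, Fgf11 stood above Scn2b, and with median transcript lengths Fgf12 stood above Scn4b. Fgf13 stayed first and Fgf14 last under each length used. With median or longest transcript lengths this was no test for Fgf13, whose own (617 and 2499 bases) were the shortest of the 7. In approximate reads, which are not per length, Scn4b (30182 to 43627 per library) exceeded Fgf13 (14018 to 19327).

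**Figure D1:**
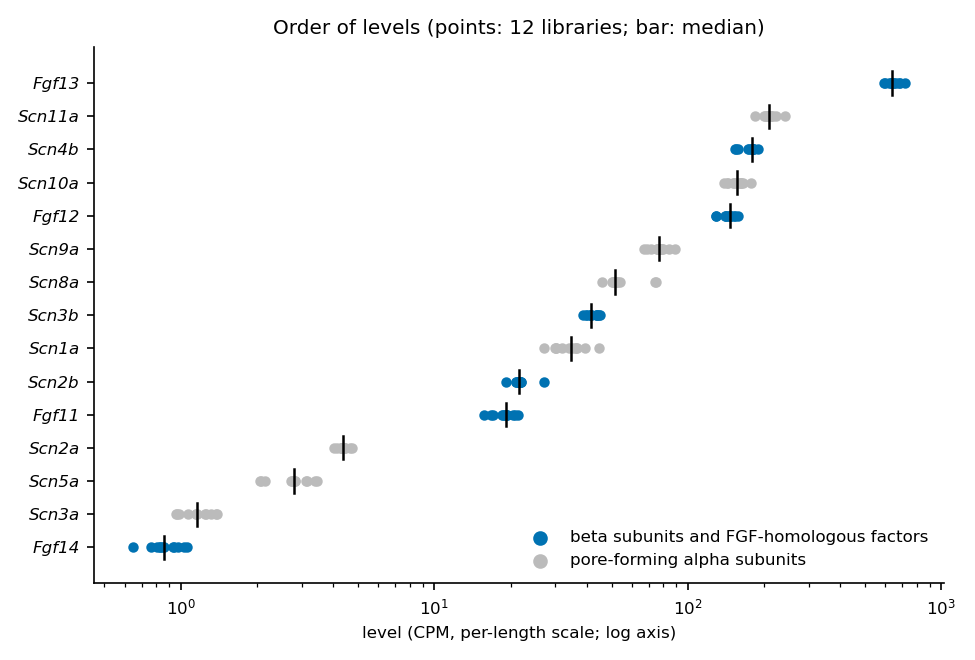
Levels of the 7 genes (blue) and of 8 genes of pore-forming alpha subunits (grey) on a log axis of CPM on the per-length scale; each point is 1 of 12 libraries and the bar is their median. Fgf13 lies above every alpha subunit gene shown and Fgf14 below every one by median.

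The beta subunit genes shared out their summed level in nearly fixed proportions. Scn4b made up 73.1% ± 1.48 (SD, n = 12) of the sum of the 3 genes, and between 70.9% and 75.3% in any library. Scn3b made up 17.8% ± 1.154 and Scn2b 9.19% ± 0.606. The neighbouring genes Scn4b and Scn2b thus differed 7.98-fold ± 0.602 in level, with a range of 6.68 to 8.66 over the libraries. Among the factors Fgf13 made up 79.7% ± 1.51 of the sum of the 4 genes and Fgf12 17.8% ± 1.31. Fgf11 contributed 2.33% ± 0.274 and Fgf14 0.108% ± 0.0165. For scale, the 3 beta subunit genes summed to 237 ± 13.3 CPM and the 4 factor genes to 811 ± 33.3 CPM. The 8 alpha subunit genes listed here summed to 540 ± 25.6 CPM. Scn4a, which was counted as a muscle marker, and Scn7a are not on this list.

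None of the 7 genes passed a test of a difference with the time of day. In the any-time test, of whether the 4 times differ at all (edgeR's quasi-likelihood F test, Benjamini-Hochberg adjusted p under 0.05) 0 of 7 passed, against 13 of all 25809 genes tested (0.0504%). The 24-h cosine test called 0 of 7 (0.0659% of all genes), and the test of a 12-h alternation, in which ZT2 and ZT14 are set against the other 2 times, called 0 of 7 (0% of all). With so few calls among all genes, a count of 0 of 7 is no result about these genes in particular. Adjusted p-values of the 7 genes in edgeR's any-time test lay between 0.921 for Fgf11 and 0.9998 for Fgf12. At an unadjusted p under 0.05 the count was again 0 of 7 in each of these 3 tests, where 6.19%, 5.2% and 7.44% of all genes passed. Limma-trend also called 0 of 7 in the any-time and 24-h tests (0.0736% and 0.0659% of all genes), and so did DESeq2 (1.13% and 0.628%). The clock gene Arntl, a transcriptional activator named here as a rhythmic reference, passed the same any-time test in edgeR with an adjusted p of 0.0011 and a 24-h amplitude of 0.86 ± 0.06 (SE) on the log2 scale.

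The pairwise comparisons of times gave the same count. edgeR called 0 of 7 at ZT14 against ZT2 (0.0465% of all genes), ZT20 against ZT8 (0.0232%) and ZT8 against ZT2 (0.0194%). It called 0 of 7 at ZT14 against ZT8 (0%), ZT20 against ZT14 (0.0426%) and ZT2 against ZT20 (0.00387%) too. At an unadjusted p under 0.05 none of the 7 passed either, against 5.19%, 5.28%, 5.78%, 6.3%, 6.28% and 7.05% of all genes in the same order. With 1 library left out some did: Scn2b at ZT14 against ZT2 (unadjusted p = 0.0242 without ZT2 replicate 1), Scn3b at ZT8 against ZT2 (0.0349 without ZT2 replicate 3), and at ZT14 against ZT8 Fgf13 (0.012 without ZT8 replicate 1) and Fgf11 (0.0379 without ZT8 replicate 2), all with edgeR adjusted p-values of 0.893 or more. These were picked from fits that left out each of the 12 libraries in turn. The share of all genes under 0.05 in those fits is not given here, so the picked values are no result about these genes. All 42 of the 95% intervals, 7 genes in 6 comparisons, included a log2 fold change of 0. Leaving out Fgf14, the lowest and highest ends of the 36 separate, unadjusted intervals were 0.779-fold and 1.32-fold. For Fgf14 they were 0.673-fold and 1.49-fold. The groups of 3 libraries did not overlap in 3 of the 42 comparisons. These were Fgf11 at ZT14 against ZT8 (11.3% of all genes do not overlap there) and both Fgf11 and Fgf13 at ZT20 against ZT14 (11.4%). In the other 4 comparisons every one of the 7 genes overlapped, where 11.2% of all genes (ZT14 against ZT2), 9.9% (ZT20 against ZT8), 11.7% (ZT8 against ZT2) and 14.8% (ZT2 against ZT20) did not.

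**Figure D2:**
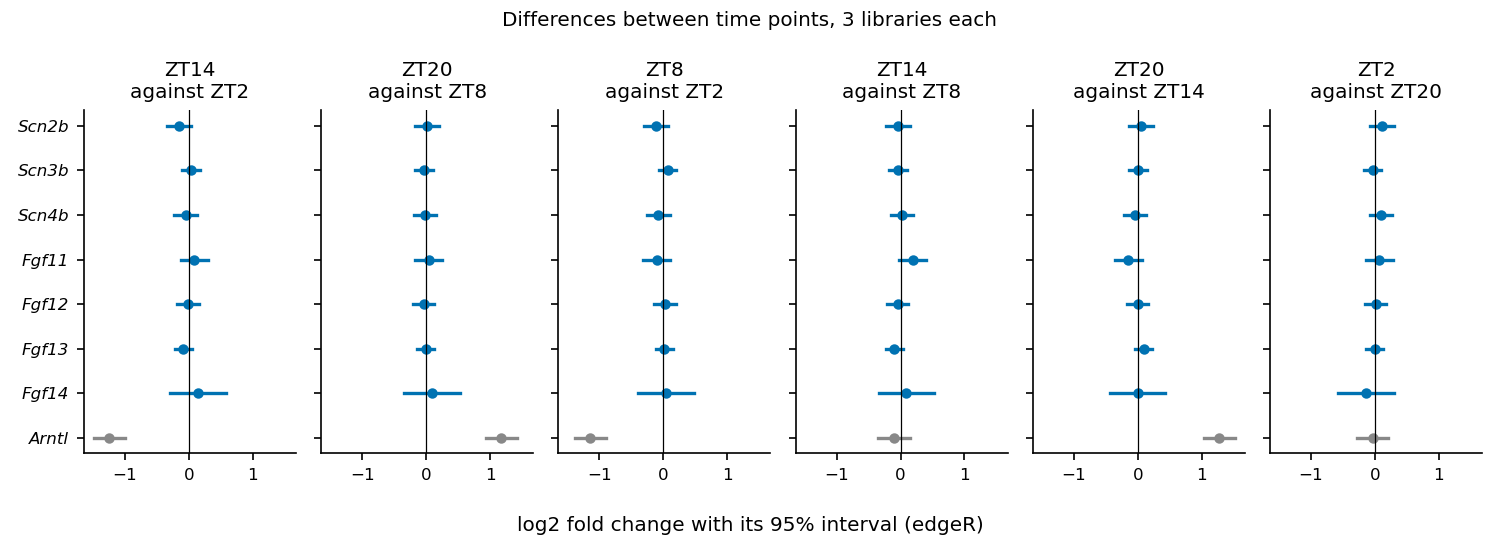
Log2 fold change (point) with its 95% interval (line) from edgeR for the 7 genes (blue) and Arntl (grey) in 6 comparisons of 3 libraries against 3. Every blue interval crosses 0, and the interval of Arntl does not cross it in 4 of the comparisons.

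Scn4b, whose product is known from large myelinated sensory neurons and takes part in resurgent sodium current, measured 182, 178 and 181 CPM in replicates 1 to 3 at ZT2. At ZT8 it measured 181, 174 and 157 CPM, at ZT14 153, 189 and 179 CPM, and at ZT20 154, 173 and 180 CPM. The 3 libraries of ZT2 were close together, while each of the other times held 1 library near 155 CPM that stood below its fellows. The means ran from 169 ± 13.1 CPM (SD, n = 3) at ZT20 to 180 ± 1.78 CPM (SD, n = 3) at ZT2, a ratio of 1.07, and all times overlapped. Its fitted 24-h amplitude was 0.027 ± 0.04 (SE) on the log2 scale. That value depended on single libraries: it was 0.018 without ZT14 replicate 1, 0.062 without ZT14 replicate 2, 0.047 without ZT8 replicate 3, 0.041 without ZT14 replicate 3 and 0.044 without ZT20 replicate 3.

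Scn3b, a beta subunit gene of neurons, measured 38.6, 39.6 and 45.002 CPM at ZT2. It measured 41.5, 43.9 and 43.7 CPM at ZT8, 41.0, 43.5 and 41.3 CPM at ZT14, and 41.4, 40.1 and 44.8 CPM at ZT20. Both the lowest and the highest of its libraries came from ZT2. The highest and lowest means, 43.0 CPM at ZT8 and 41.1 CPM at ZT2, were 1.05-fold apart.

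Scn2b, whose product is cut by the secretase BACE1 as other beta subunits are, measured 21.003, 21.8 and 27.1 CPM at ZT2. It measured 22.0, 21.4 and 20.95 CPM at ZT8, 19.2, 22.0 and 21.3 CPM at ZT14, and 21.7, 21.7 and 21.5 CPM at ZT20. One library, ZT2 replicate 3, stood above the other 11, which lay between 19.2 and 22.0 CPM. Its log2 fold change at ZT14 against ZT2 was -0.16 ± 0.09 (SE) with an unadjusted p of 0.0852 and an adjusted p of 1 in edgeR. Without ZT2 replicate 3 the same value was -0.04, and the 24-h amplitude fell from 0.08 to 0.02.

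Fgf13, the factor most studied in sensory neurons, where it takes part in responses to heat, measured 632, 678 and 651 CPM at ZT2. It measured 600, 660 and 720 CPM at ZT8, 620, 633 and 596 CPM at ZT14, and 686, 641 and 642 CPM at ZT20. ZT14 had the lowest mean, 616 ± 19.1 CPM (SD, n = 3), and all its libraries lay below those of ZT20. That difference, a log2 fold change of 0.09 ± 0.06 (SE) for ZT20 against ZT14, had an adjusted p of 0.869 in edgeR.

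Fgf12, a factor that shifts the inactivation of the channels it binds, measured 146, 141 and 147 CPM at ZT2. It measured 152, 148 and 141 CPM at ZT8, 129, 158 and 142 CPM at ZT14, and 129, 147 and 153 CPM at ZT20. The 2 lowest libraries, ZT14 replicate 1 and ZT20 replicate 1, were also the 2 lowest of Scn4b. The means at the 4 times differed by at most 1.03-fold.

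Fgf11, a less studied member of the family, measured 21.4, 18.9 and 17.0 CPM at ZT2 and 18.4, 19.2 and 15.6 CPM at ZT8. It measured 19.3, 20.9 and 20.5 CPM at ZT14 and 16.8, 19.3 and 18.7 CPM at ZT20. The libraries of ZT14 lay above all those of ZT8 and ZT20, by narrow gaps. Of the 7 genes it had the lowest p in edgeR's any-time test (0.27 unadjusted, 0.921 adjusted), and its means were 1.14-fold apart, 20.2 CPM at ZT14 and 17.8 CPM at ZT8.

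Fgf14, known mainly from the cerebellum, measured 0.803, 0.829 and 0.853 CPM at ZT2 and 1.05, 0.647 and 0.861 CPM at ZT8. It measured 0.825, 0.973 and 0.938 CPM at ZT14 and 0.765, 0.934 and 1.03 CPM at ZT20. The lowest and the highest library were both from ZT8. With 77.1 approximate reads in the lowest library, counting alone gives a coefficient of variation of about 11.4%, so small differences in this gene were not detectable at this depth. Among the genes inside its span are the antisense Gm28932 (median 0.267 CPM) and, on the same strand, the pseudogene Gm15422 (median 0.218 CPM). The handling of strand is not stated in the sources used here, so reads of the antisense gene may not be told apart.

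**Figure D3:**
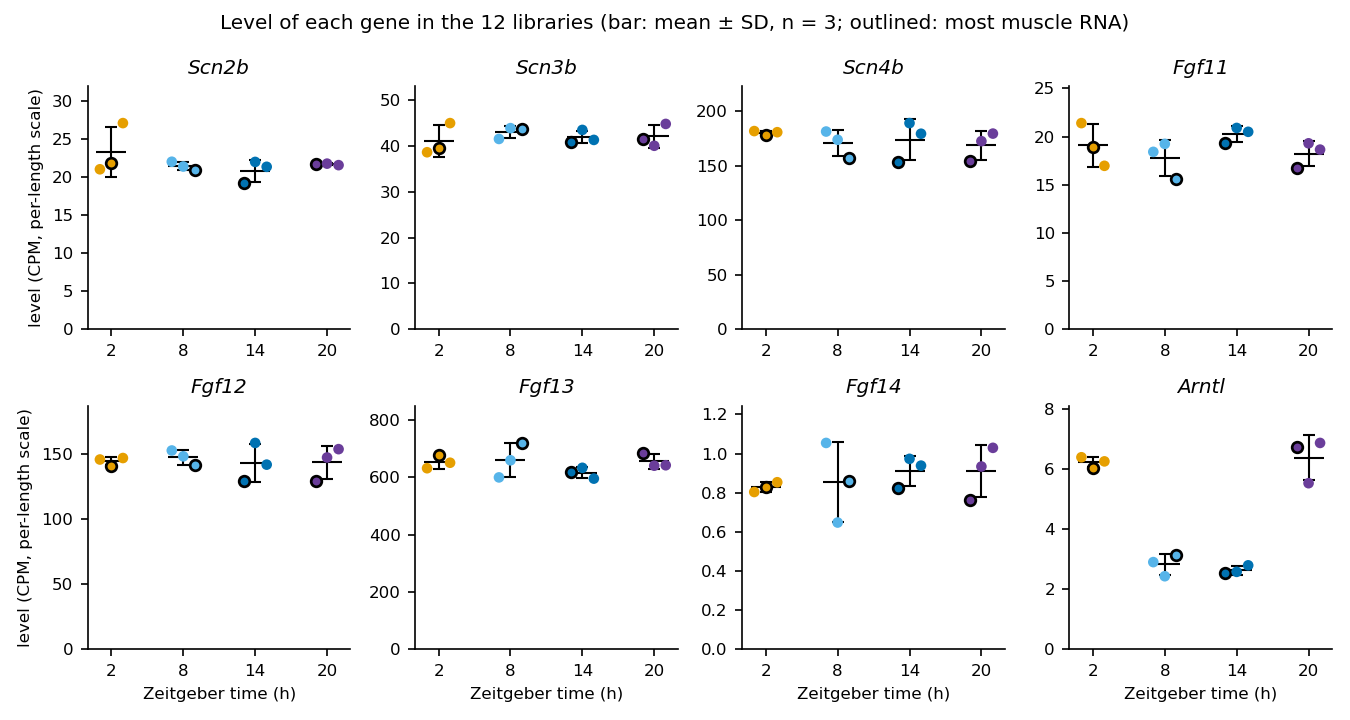
Level in CPM (per-length scale, axes from 0) of the 7 genes and of Arntl at zeitgeber times 2, 8, 14 and 20 h; points are libraries, bars the mean ± SD of 3, and outlined points the library with the most muscle RNA at its time. The libraries of different times overlap for most of the 7 genes, whereas Arntl has a mean of 6.24 CPM at ZT2 and of 2.63 CPM at ZT14.

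The spread between libraries of the same time was small for most of these genes. The SD of log2 CPM within times was 0.08 for Scn3b and Fgf13, 0.10 for Fgf12, 0.11 for Scn2b and Scn4b, 0.13 for Fgf11 and 0.21 for Fgf14. It was below the median of all genes tested (0.19) for 6 of the 7. These 6 had median levels of 19.1 to 642 CPM, and Fgf14 had 0.857 CPM. All genes tested include genes of any level, and the spread was not compared with genes of a similar level. Because whole ganglia were sequenced, fewer cells of a type and less RNA per cell cannot be told apart in any of these levels.

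Across the 12 libraries Scn4b and Fgf12 rose and fell together. Pearson's r of their log2 CPM was 0.85 (permutation p = 0.00046, adjusted p = 0.00966 over 21 pairs of genes, two-sided, 100000 permutations), and Spearman's rho was 0.70 (permutation p = 0.0137, adjusted p = 0.233). Taken as deviations from the mean of each time, r was 0.94 (exact permutation within times, p = 0.00154, adjusted p = 0.0324). The relation rested largely on few libraries. Without the 2 libraries farthest from the median of Scn4b, r was 0.58, and without the library richest in muscle RNA at each time it was 0.54 with an adjusted permutation p of 0.726. None of the other 20 pairs passed. The next strongest, Fgf11 with Fgf13, moved in opposite directions with r = -0.69 and rho = -0.66 (permutation p = 0.0137 and 0.0222, adjusted p = 0.144 and 0.233), and r was -0.28 without the 2 libraries farthest from the median of Fgf11. The genomic neighbours Scn2b and Scn4b had r = 0.44 (adjusted permutation p = 0.414), and r was 0.31 without the 2 farthest libraries.

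**Figure D4:**
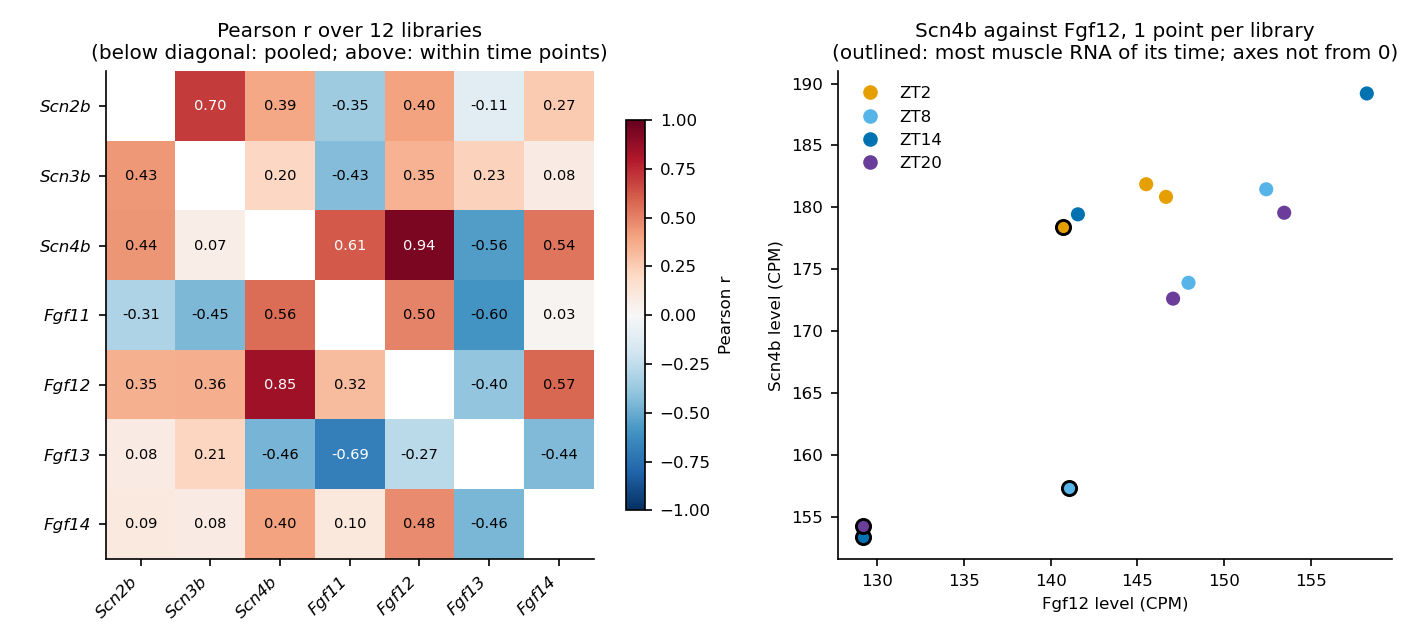
Left, Pearson's r of log2 CPM between the 7 genes over 12 libraries, pooled below the diagonal and as deviations from time means above it. Right, Scn4b against Fgf12 in CPM, 1 point per library, with the library richest in muscle RNA at each time outlined: 3 of these 4 libraries are the lowest of Scn4b.

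Several properties of the libraries moved with Scn4b and Fgf12, and their part in the correlation was not tested. One is the level of skeletal muscle markers. All 12 skeletal muscle markers were detected, and none was at 0 throughout. Pvalb is on this list and on that of myelinated neurons, so the summed level is not of muscle alone. In ZT20 replicate 2 that sum was 193 CPM at a mean log2 level of 1.24, so the markers contributed unequally. Their summed level ranged from 233 to 546 CPM at ZT2, 250 to 578 CPM at ZT8, 306 to 629 CPM at ZT14 and 193 to 1157 CPM at ZT20. In the library richest in muscle markers at each time, Scn4b measured 178 CPM (ZT2 replicate 2), 157 CPM (ZT8 replicate 3), 153 CPM (ZT14 replicate 1) and 154 CPM (ZT20 replicate 1), against 173 to 189 CPM in the other 8. Fgf12 measured 129 to 141 CPM in those 4 libraries and 142 to 158 CPM in the other 8. The highest values of Fgf13, 720 and 686 CPM, were in 2 of these 4 libraries. Over the 12 libraries the mean log2 level of the muscle markers had r = -0.57 and rho = -0.41 with Scn4b, and r = -0.69 and rho = -0.76 with Fgf12, given as a description. Markers of endothelium, 4 genes with none at 0 and a summed level of 55.8 to 62.5 CPM at ZT2, 50.4 to 60.2 CPM at ZT8, 55.1 to 64.3 CPM at ZT14 and 61.3 to 69.6 CPM at ZT20, had r = -0.60 and rho = -0.66 with Scn4b and r = -0.69 and rho = -0.72 with Fgf12. Within times these values of r were -0.84 and -0.78, against -0.70 and -0.71 for muscle. The 7 nociceptor markers had r = 0.64 and rho = 0.41 with Scn4b and r = 0.52 and rho = 0.55 with Fgf12. For the other marker lists (neurons in general, myelinated neurons, satellite glia, Schwann cells, fibroblasts and macrophages) r lay between -0.44 and 0.46 for Scn4b and between -0.45 and 0.12 for Fgf12. Another property is the balance of long and short transcripts, an index chosen after seeing the data: the median deviation of 773 genes over 4000 bases minus that of 4124 genes under 1000 bases. This index was lowest in ZT20 replicate 1 (-0.14), ZT14 replicate 1 (-0.11) and ZT8 replicate 3 (-0.10), the 3 libraries in which Scn4b was lowest. It had r = 0.91 with Scn4b, 0.80 with Fgf12 and -0.50 with Fgf13, with rho = 0.73, 0.71 and -0.33. By median transcript length Scn4b (4982 bases) is itself among the long genes and Fgf13 (617) among the short ones. For Scn4b and Fgf13 the index is therefore not a separate measure, while Fgf12 (1679) is in neither set.

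The tissue label was borne out by its markers: the 11 markers of neurons in general summed to between 14421 and 15476 CPM in every library, with none at 0. Markers of nociceptors, which respond to painful stimuli, summed to between 3738 and 4527 CPM, and those of myelinated sensory neurons to between 4334 and 5134 CPM. Markers of Schwann cells summed to between 5933 and 8426 CPM and those of satellite glia to between 680 and 1088 CPM. The satellite glia sum was 1005 to 1088 CPM at ZT2 and 680 to 745 CPM at ZT14, and its part in the levels above was not tested. Of the 6 satellite glia markers 1 passed edgeR's any-time test and of the 11 neuronal ones 0, beside 13 of all 25809 genes tested (0.0504%). With so few calls among all genes, the 0 of 11 is no result about neuronal markers. Library totals ran from 89.82 to 125.01 in units of 1000000 estimated counts.

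The proteins that these subunits work with were described from 3 lists. In the list of alpha subunit genes, which leaves out Scn4a and Scn7a, 0 of 8 passed edgeR's any-time test (0.0504% of all genes). The count was also 0 of 8 at an unadjusted p under 0.05 (6.19% of all genes). At ZT20 against ZT8, 1 of the 8 had an edgeR unadjusted p under 0.05 (5.28% of all genes). Scn11a, an alpha subunit of nociceptors, had the highest level of that list with a median of 208 CPM, above Scn4b but far below Fgf13. Scn3a, an alpha subunit of embryonic neurons, had the lowest at 1.16 CPM. Scn1a had the lowest any-time p in edgeR (0.153, adjusted p = 0.878), with libraries from 27.0 to 44.7 CPM. In the list of the axon initial segment and node, which anchors the channels, 0 of 10 genes passed edgeR's any-time test (0.0504% of all genes). The same count was below 0.05 before adjustment, where 6.19% of all genes were. In the 24-h test 1 of the 10 had an unadjusted p under 0.05 (5.2% of all genes). The count was also 1 at ZT14 against ZT2 (5.19%) and at ZT20 against ZT8 (5.28%). Sptbn1, a spectrin, was highest with a median of 318 CPM and Nrcam, an adhesion molecule, lowest with 30.0 CPM. Sptbn4, the spectrin of the initial segment, had the lowest any-time p in edgeR, 0.0551 (adjusted p = 0.807).

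In the list of trafficking and regulatory partners 0 of 11 genes passed edgeR's any-time test (0.0504% of all genes). An unadjusted p under 0.05 was seen in 1 of them (6.19% of all genes). The 24-h test gave the same 2 counts (5.2% of all genes at an unadjusted p under 0.05). Pdzd2, a PDZ protein, had the lowest level of the list with a median of 15.7 CPM. DESeq2 called 1 of the 11 in the any-time test, where it called 1.13% of all genes. The median log2 fold change at ZT14 against ZT2 was -0.01 for the 7 genes (3 of 7 above 0), -0.06 for the alpha subunits (1 of 8), -0.02 for the initial segment list (3 of 10) and 0.01 for the trafficking list (7 of 11), beside -3.1e-05 over all genes tested. At ZT20 against ZT8 the medians were -0.0081 (3 of 7), -0.085 (2 of 8), 0.0047 (5 of 10) and -0.025 (4 of 11) in the same order, beside 0.0016 over all genes tested, so the medians of the last 2 lists differ in sign between the comparisons.

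For each of the 7 genes the 2 protein-coding genes with the most similar course over the 12 libraries were taken from 11107 candidates of at least 5 CPM, by Pearson's r of log2 CPM. These are descriptions, picked as the highest of many, and the libraries share the properties given above. Scn2b was nearest to Mgat4a (r = 0.90), a glycosyltransferase gene, and Chd5 (0.90), a chromatin remodeller of neurons. Scn3b was nearest to Kcnn2 (0.83), a calcium-activated potassium channel gene, and Trmt10b (0.81). Scn4b was nearest to Syt7 (0.95), a calcium sensor of vesicle release, and Zfp365 (0.95). Fgf11 was nearest to Gpr89 (0.90) and Aff1 (0.89). Fgf12 was nearest to Cyp4x1 (0.92) and Mapk9 (0.90), a stress-activated kinase gene. Fgf13 was nearest to Naa20 (0.88) and Helz (0.87), and Fgf14 to Kazn (0.87) and Huwe1 (0.84). None of the 7 genes was among the 2 nearest of another.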

How the data were processed

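Per the labels' protocols, frozen lumbar ganglia were extracted with an RNeasy kit, mRNA was enriched with oligo(dT) beads, and paired reads of 150 bases were obtained from DNA nanoballs. The submitters' processing notes name StringTie 2.1.5, HISAT2 2.2.1 and the build GRCm38.p6; neither their roles nor the annotation is stated in the sources used here. The deposited values are estimated counts that are not whole numbers. They behave as coverage per base: divided by the library's most frequent value and multiplied by length, 58.1% to 65.9% of low single-transcript genes gave whole bases (tolerance 0.02), against 4.77% to 5.60% with lengths shuffled. Read depth is therefore only approximated, at 47.9 to 67.1 per library in units of 1000000 reads, and counting error is not modelled exactly. A gene's value sums its transcripts, so order between genes can depend on isoforms. Levels per length had been planned as counts divided by length, and with values already per length the division was kept as an alternative only.

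Gene symbols and coordinates came from GENCODE M21. Estimated counts were rounded, and 348 assembled loci without a gene (0.203% to 0.231% of a library) were left out. edgeR 4.0.16 in R 4.3.3 fitted 1 model with 4 times to 12 libraries (TMM, filterByExpr, robust quasi-likelihood F tests, Benjamini-Hochberg over 25809 genes, threshold 0.05); the script was tested on simulated data. limma 3.58.1 and DESeq2 1.42.0 were alternatives, with other scalings, filters, a replicate block and left-out libraries. Correlations and figures used Python 3.11.15 with scipy 1.17.1 and matplotlib 3.10.9. Named genes were the 7 genes, the 2 genes most correlated with each, the highest, the lowest and the lowest-p gene of each list, Arntl, and overlapping or neighbouring genes; some genes this rule selects are not reported here. The genes and lists were chosen with earlier results of these data known.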

Additional observations from a re-analysis of the deposited data

How the results depend on the processing

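With each alternative tried, 23 settings and 204 recomputed counts over the 9 tests, 0 of the 7 genes passed. The lowest adjusted p of any of them was 0.53. The replicate block gave 0 of 7 in each test and amplitudes of 0.02 to 0.08. The replicate numbers were not treated as pairs: of 18 same-numbered pairs of libraries 7 had deviations correlated above 0.1 (median 0.03), and 4 of 12 libraries correlated best with one of their own number. Leaving out 1 library, the 24-h amplitude ran from 0.021 to 0.12 for Scn2b, 0.013 to 0.053 for Scn3b, 0.018 to 0.062 for Scn4b, 0.020 to 0.087 for Fgf11, 0.0090 to 0.053 for Fgf12, 0.031 to 0.057 for Fgf13 and 0.061 to 0.15 for Fgf14. In the 12-h test 3 of the 12 such fits gave an unadjusted p under 0.05, Fgf11 without ZT2 replicate 3 (0.0273) or ZT8 replicate 2 (0.0474) and Fgf13 without ZT8 replicate 1 (0.0408), with adjusted p-values of 0.646 or more. In the fit of all libraries 7.44% of all genes were under 0.05 in that test, so these values are no result about Fgf11 or Fgf13. Directions of the near-zero changes were not stable. Without the 4 libraries richest in muscle RNA, the log2 fold change at ZT14 against ZT2 turned to 0.023 for Scn4b and 0.037 for Fgf12, and at ZT20 against ZT8 to -0.0012 for Scn2b, 0.0019 for Fgf12 and 0.028 for Fgf13. Leaving out 1 library, values at ZT14 against ZT2 ran from -0.016 to 0.10 for Scn3b, -0.12 to 0.030 for Scn4b and -0.097 to 0.054 for Fgf12. At ZT20 against ZT8 they ran from -0.0045 to 0.035 for Scn2b, -0.077 to 0.043 for Scn4b, -0.049 to 0.10 for Fgf11, -0.096 to 0.030 for Fgf12, -0.072 to 0.056 for Fgf13 and -0.073 to 0.27 for Fgf14. The number of correlated pairs, 1, fell to 0 without the 4 muscle-rich libraries, a fit on 8 libraries. Among all genes the any-time test called 13 in edgeR, 292 in DESeq2, 7 with the replicate block, 8 without the 4 muscle-rich libraries and 4 to 22 with 1 library left out; the 24-h test called 17, 162, 4, 4 and 5 to 17. The 12-h test called 0 in edgeR and 114 in DESeq2, and the 6 pairwise tests called 0 to 12 in edgeR and 68 to 115 in DESeq2; the cause was not tested. Of the trafficking list DESeq2 called 1 of 11 genes in the any-time test (1.13% of all genes). With a filter of 5 CPM in 3 libraries Fgf14 was not tested. Fgf14 has the fewest reads of the 7 genes and the widest intervals.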

Other observations

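Some genes that overlap or adjoin the 7 genes were measured as well. Gm10684, a long non-coding RNA gene on the strand opposite Scn2b, measured 1.75 to 2.41 CPM, with an edgeR any-time p of 0.79 (adjusted p = 0.994). Jaml, the next protein-coding gene before Scn2b, measured 0.939 to 1.72 CPM, so that 3 neighbouring genes of this stretch, Jaml, Scn2b and Scn4b, had medians of 1.41, 21.6 and 179 CPM. Chrnb1, a muscle acetylcholine receptor gene 124 bases from the end of Fgf11 on the same strand, measured 2.28 to 2.79 CPM (edgeR any-time adjusted p = 0.9998). Gramd1b, which lies 1614 bases beyond Scn3b on the other strand, measured 64.6 to 74.9 CPM and exceeded Scn3b in each library by range.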
